A study of Mus musculus with 60 samples.

Results

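Kainate receptors are glutamate-gated ion channels, and the transcripts of their subunits and of their auxiliary proteins were examined in mouse hippocampus. The genes were taken by name: the 5 subunit genes Grik1, Grik2, Grik3, Grik4 and Grik5 and the 2 auxiliary genes Neto1 and Neto2, 7 of the 24508 genes in the deposited expression table. All 7 had a row in the table and passed the filter on low values. RNA-seq had been made from hippocampus of 9 wild-type (WT) and 9 R6/1 animals, both 30 weeks old and both on a mixed CBA and C57BL/6 background. R6/1 mice carry, beside their own huntingtin genes, a human transgene with the first part of huntingtin and a lengthened CAG repeat, and serve as a model of Huntington's disease. The RNA is that of whole hippocampal tissue, with neurons, glia and vessels together. The labels call the RNA samples independent biological replicates. Lamin B1 ChIP-seq of the same tissue and the same genotypes, from pools of 5 mice, had been turned into 1 list of lamina-associated domains per genotype.

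A kainate receptor is a tetramer. The products of Grik1, Grik2 and Grik3 (GluK1, GluK2 and GluK3) can form channels by themselves, whereas those of Grik4 and Grik5 (GluK4 and GluK5) bind glutamate with high affinity but reach the surface and conduct only together with a subunit of the first kind. Neto1 and Neto2 are single-pass membrane proteins that bind the receptor, slow its gating and alter its placement at synapses; Neto1 also associates with NMDA receptors. In the hippocampus, kainate receptors are best known from the synapses of dentate granule cell axons, the mossy fibres, onto CA3 pyramidal neurons, where GluK2, GluK4, GluK5 and Neto1 contribute to the slow synaptic current, and from inhibitory interneurons, where GluK1 is prominent.

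The coding sequence around the pore is shown because it holds the site of RNA editing in this family. In each of the 5 subunit genes the reference carries a glutamine codon, CAG, at the tip of the pore loop, the so-called Q/R site. In Grik1 and Grik2 transcripts the adenosine of this codon can be deaminated by the enzyme ADAR2, product of Adarb1, and the codon is then read as arginine. The 51 coding bases around the codon are given 5′ to 3′ on the sense strand from the GENCODE transcripts of build NCBIM37 (mm9), with the Q/R codon in capitals:
Grik1: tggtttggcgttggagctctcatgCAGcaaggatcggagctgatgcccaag
Grik2: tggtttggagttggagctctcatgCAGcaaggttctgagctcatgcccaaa
Grik3: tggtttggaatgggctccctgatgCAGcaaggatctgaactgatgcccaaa
Grik4: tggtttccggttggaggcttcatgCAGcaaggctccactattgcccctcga
Grik5: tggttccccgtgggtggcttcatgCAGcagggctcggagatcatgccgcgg
The codon lies at chr16:87940787-87940789 in exon 11 of 15 of Grik1, at chr10:48964135-48964137 in exon 12 of 16 of Grik2 and at chr4:125368451-125368453 in exon 12 of 16 of Grik3. In Grik4 it lies at chr9:42355706-42355708 in exon 14 of 19, and in Grik5 at chr7:25807516-25807518 in exon 15 of 20. Grik3 is on the plus strand and the other 4 subunit genes are on the minus strand. Within this window Grik1 and Grik2 share 46 of 51 bases, Grik3 shares 41 with Grik1 and 42 with Grik2, and Grik4 and Grik5 share 36 with each other. Between the 2 classes, identity ran from 28 bases (Grik3 with Grik4) to 36 bases (Grik1 with Grik5). Expression per gene does not record which base a read carried, so editing of the codon was not analysed here.

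Libraries held between 12299434 and 16457022 reads on genes in WT and between 13260311 and 16736544 in R6/1, recovered from the deposited values. Across the members the reads per library ran from 130 to 234 for Grik1 in WT, the lowest, to between 3106 and 4550 for Grik5 in WT, the highest. Counting error therefore weighs most on Grik1. Marker lists were read beside the tissue label, and all markers of dentate granule, CA3 and CA1 neurons were detected. The striatal projection neuron and choroid plexus markers were all detected too, so detection by itself does not check the label. The summed level of the 5 striatal projection neuron markers was at most 12.4 RPKM, against at least 144 RPKM for the 6 CA3 markers. These sums are of different genes, and no striatal sample was at hand as a reference. Choroid plexus markers varied widely between libraries, from 25.4 to 1072 RPKM summed over 5 genes in WT and from 38.8 to 1738 RPKM in R6/1, with no call by genotype in any of the 5.

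In WT hippocampus Grik5 was the most abundant of the 7 transcripts per length, at 68.8 ± 5.04 RPKM (SD over 9 libraries, as for the values that follow; RPKM are reads per kilobase scaled for depth). Next came Neto1 at 35.4 ± 6.86 RPKM, Grik4 at 19.2 ± 4.21 RPKM and Grik2 at 14.8 ± 0.891 RPKM. Neto2 at 12.5 ± 1.00 RPKM, Grik3 at 8.84 ± 1.92 RPKM and Grik1 at 3.05 ± 0.497 RPKM closed the order. The order of the means was the same in R6/1. In WT 2 neighbours in this order did not overlap over libraries, Grik5 above Neto1 and Grik3 above Grik1. In R6/1 the same 2 pairs did not overlap, nor did Grik4 and Grik2. The other neighbours overlapped, although Neto1 was above Grik4, and Grik4 above Grik2, in 9 of 9 libraries of each genotype. Of all 24508 genes with deposited values, those under the filter on low values included, Grik5 lay above 96.2% in WT and Grik1 above 56.4%.

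R6/1 hippocampus had less transcript of 6 of the 7 genes. Neto1 fell most, with a mean RPKM 43.0% lower, followed by Grik2, and these were the 2 genes whose libraries did not overlap between the genotypes. Grik1, Grik4, Grik5 and Neto2 fell by smaller amounts, and Grik3 did not pass the test. The comparison asked how transcript levels differ between carriers of the huntingtin transgene and WT mice at this age. Expression was tested with limma on log2(RPKM + 0.5) across 14446 genes, with a threshold of 0.05 on the Benjamini-Hochberg adjusted p. Of the 7 members 6 were called lower and 0 higher, where 48.3% of all tested genes were called, 23.5% lower and 24.8% higher. At an unadjusted limma p under 0.05 the count of higher members was also 0, as it was with limma voom and in the authors' deposited table. The 2 members with no overlap, both lower, stand beside 11.9% of all tested genes with no overlap, 6.38% lower and 5.5% higher. The median log2 fold change of the 7 was -0.23, against 0.00 over all tested genes. In bulk tissue, fewer cells of a type and less RNA per cell cannot be told apart.

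**Figure D1:**
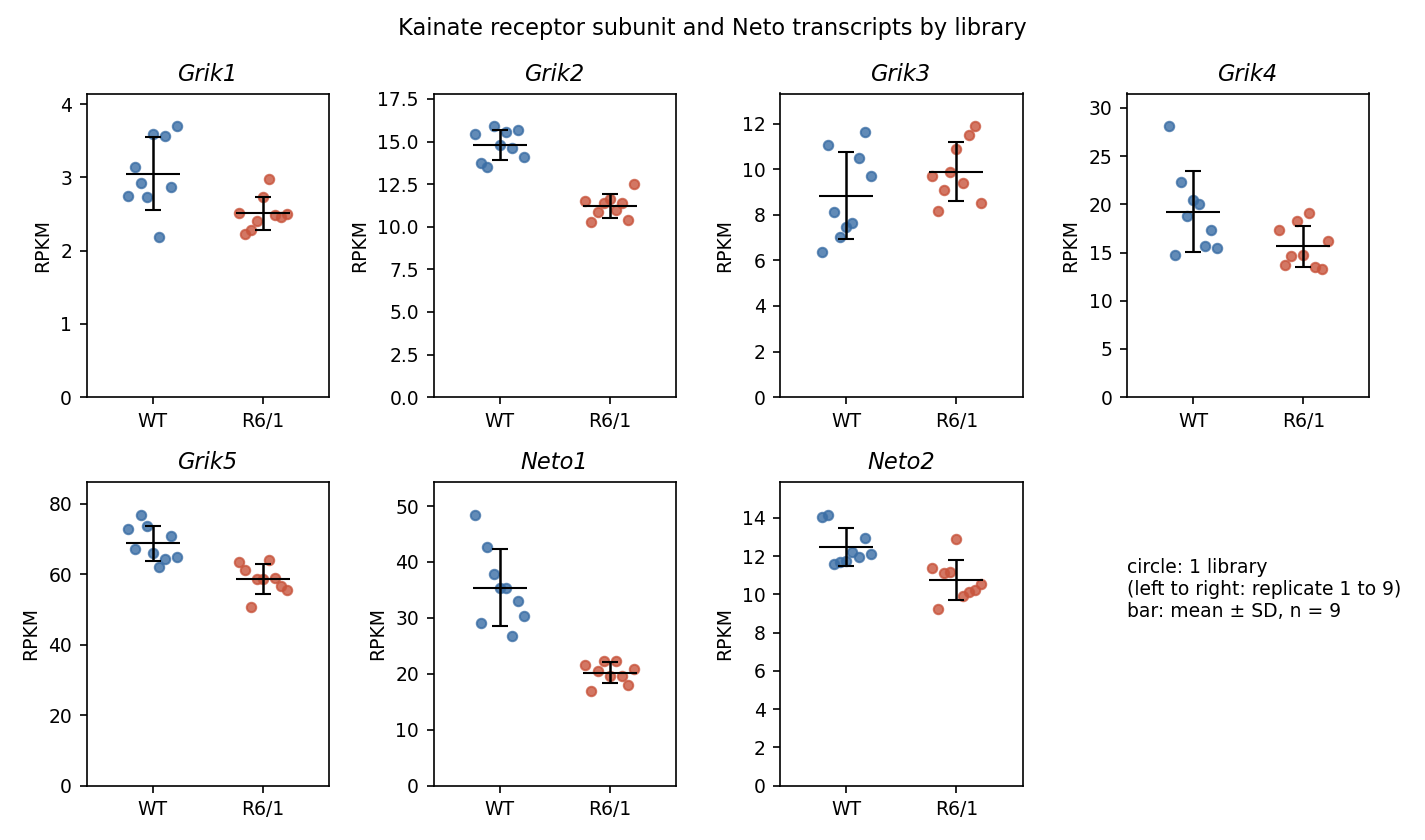
Expression of the 7 genes in each library, in RPKM on axes that start at 0, with WT and R6/1 side by side; each point is 1 library and the bars give the mean and SD of 9. The Neto1 and Grik2 points of the genotypes do not overlap. The 9 R6/1 points of Grik3 lie above the WT median of 8.14 RPKM, the lowest at 8.17 RPKM, and overlap the WT points.

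Among the subunits that form channels by themselves, Grik2 showed the clearest difference. GluK2 is the principal pore-forming kainate subunit of hippocampal principal neurons. Grik2 ran from 13.5 to 15.9 RPKM in WT with a median of 14.8, and from 10.3 to 12.5 RPKM in R6/1 with a median of 11.4. All 9 R6/1 libraries lay below all 9 WT libraries, and the SD was under 1 RPKM in each genotype. The log2 fold change was -0.38 (SE 0.0424, 95% interval -0.47 to -0.30, limma adjusted p = 3.96e-07). The call held in each of 31 alternative settings (other scalings, filters and models, the authors' own test and subsets of the libraries), where the adjusted p ran from 5.51e-17 to 0.00709.

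Grik1, whose product is the subunit of interneurons and is known for its sensitivity to selective antagonists, was the scarcest member. It ran from 2.18 to 3.70 RPKM in WT with a median of 2.93, and from 2.22 to 2.98 RPKM in R6/1 with a median of 2.49. The R6/1 libraries lay inside the WT range, 8 of 9 below the WT median. The fitted log2 change was -0.23 (SE 0.0782, 95% interval -0.39 to -0.07, limma adjusted p = 0.0199). The call was lost when each library was scaled by its own total of reads (-0.17, limma adjusted p = 0.0976). It was also lost in the 8 libraries with choroid plexus markers under 200 RPKM (-0.26, limma adjusted p = 0.0913), a subset chosen after the data were seen.

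Grik3, whose product forms channels of low glutamate sensitivity, stood apart from the other members in direction. It ran from 6.38 to 11.7 RPKM in WT with a median of 8.14, and from 8.17 to 11.9 RPKM in R6/1 with a median of 9.72. The ranges overlapped. All 9 R6/1 libraries were above the WT median, the lowest only just, and 2 of 9 were below the WT mean of 8.84 RPKM. The 5 WT libraries up to 8.14 RPKM lay below every R6/1 library. Its log2 fold change of 0.17 (SE 0.106) had an interval that includes 0, from -0.05 to 0.39 at 95% (limma adjusted p = 0.191). The test was not passed in any of the 31 alternatives, where the value ran from 0.05 to 0.24. Its SD over libraries was 21.8% of the mean in WT and 13.1% in R6/1, against 6.01% and 6.10% for Grik2.

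The partner subunits Grik4 and Grik5 both fell, with different spreads. Grik5 encodes the partner found most widely in the brain and the most abundant transcript of the family here. Grik5 ran from 62.1 to 77.0 RPKM in WT with a median of 67.2, and from 50.6 to 64.1 RPKM in R6/1 with a median of 58.8. In R6/1, 7 of 9 libraries were below the lowest WT library, and all 9 were below the WT median. For Grik5 the log2 fold change was -0.23 (SE 0.0478, 95% interval -0.33 to -0.13, limma adjusted p = 0.00056), and the call held in each of the 31 alternatives.

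Grik4 encodes the partner subunit concentrated in CA3 and the dentate gyrus. It ran from 14.7 to 28.1 RPKM in WT with a median of 18.8, and from 13.2 to 19.1 RPKM in R6/1 with a median of 14.7. The ranges overlapped, with 5 of 9 R6/1 libraries below the lowest WT library and the highest value, 28.1 RPKM, in WT replicate 1. The log2 fold change was -0.27 (SE 0.105, 95% interval -0.49 to -0.05, limma adjusted p = 0.0372). This call was the least stable of the 6. It was made in 17 of 31 alternatives, and leaving out any of 10 libraries ended it: WT replicates 1, 3, 4, 5 and 6 and R6/1 replicates 2, 3, 5, 7 and 8, with limma adjusted p between 0.0504 and 0.0701. Without WT replicate 1 the value was -0.20 (limma adjusted p = 0.0657). Without a filter on low values (limma adjusted p = 0.0566), with library weights (limma adjusted p = 0.0602), with own totals (-0.20, limma adjusted p = 0.0941) and in the libraries low in choroid plexus markers (-0.14, limma adjusted p = 0.25) it was not called.

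Of the auxiliary genes, Neto1 showed the largest difference in the family. Neto1 ran from 26.7 to 48.5 RPKM in WT with a median of 35.3, and from 16.9 to 22.3 RPKM in R6/1 with a median of 20.6. Every R6/1 library was below every WT library. Its spread was 19.4% of the mean in WT and 9.14% in R6/1. The log2 fold change was -0.78 (SE 0.0908, 95% interval -0.97 to -0.59, limma adjusted p = 8.31e-07), and it ran from -0.83 to -0.63 over the 31 alternatives, in each of which it was called. Among all tested genes, 6.28% were called lower with a log2 fold change of at least 0.5 in size, and Neto1 was the 1 member among them.

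Neto2 changed less. It ran from 11.6 to 14.2 RPKM in WT with a median of 12.1, and from 9.26 to 12.9 RPKM in R6/1 with a median of 10.5. In R6/1, 8 of 9 libraries lay below the lowest WT library, and the 9th was inside the WT range. Neto2 had a log2 fold change of -0.21 (SE 0.0562, 95% interval -0.33 to -0.09, limma adjusted p = 0.00404). The call held in 30 of 31 alternatives and was lost in the libraries low in choroid plexus markers (-0.17, limma adjusted p = 0.194).

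In the authors' deposited table, from their own DESeq2 test on the same libraries, the same 6 genes had an adjusted p under 0.05 and were lower, where 20.4% of the genes with an adjusted p there were. The log2 fold changes in that table ran from -0.78 for Neto1 and -0.40 for Grik2 to 0.15 for Grik3. This is another analysis of the same animals and not a second set of them.

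The summed subunit level was lower in R6/1, and the shares of the subunits in it overlapped between the genotypes. Over Grik1 to Grik5 it ran from 107.5 to 125.7 RPKM in WT (115 ± 7.01) and from 87.5 to 106.5 RPKM in R6/1 (98.0 ± 5.69), with no overlap. Grik5 supplied 59.96 ± 1.67% of this sum in WT libraries and 59.9 ± 1.85% in those of R6/1. The share of Grik2 was 12.9 ± 0.990% in WT and 11.5 ± 0.876% in R6/1, and that of Grik4 16.7 ± 2.89% and 15.9 ± 1.69%. Grik3 was the subunit whose mean share was higher, at 7.77 ± 1.89% in WT and 10.1 ± 1.41% in R6/1. Partner subunits (Grik4 plus Grik5) outweighed channel-forming ones (Grik1 to Grik3) by 3.33 ± 0.4996 to 1 in WT and 3.16 ± 0.312 to 1 in R6/1. These shares are of transcript per length and are given without a test.

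**Figure D2:**
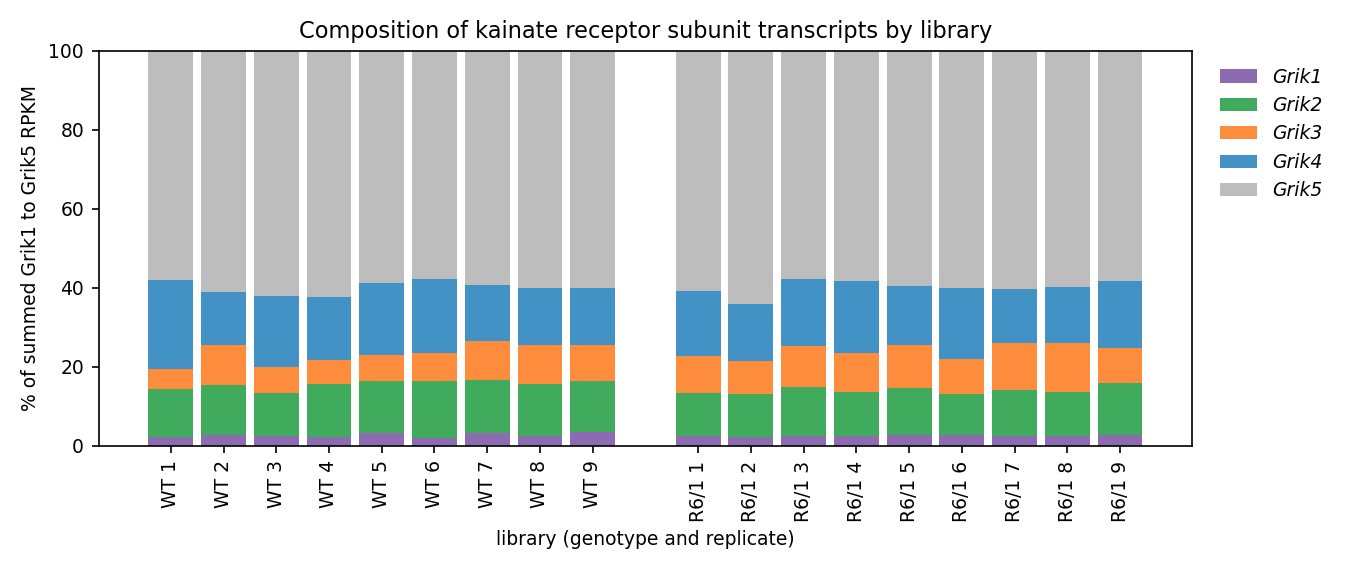
Share of each subunit gene in the summed RPKM of Grik1 to Grik5, in percent, with 1 stacked bar per library and the 9 WT libraries left of the 9 R6/1 libraries. Grik5 takes between 57.7% and 64.1% in every library, and the Grik3 band is narrowest in WT replicate 1, at 5.08%.

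The ratios of auxiliary to subunit transcripts and between the auxiliary genes were also taken per library, without a test. Summed Neto1 and Neto2 stood at 0.416 ± 0.0407 of the summed subunit level in WT and at 0.316 ± 0.0256 in R6/1, with an overlap. The ratio of Neto1 to Neto2 was 2.84 ± 0.554 in WT and 1.89 ± 0.197 in R6/1, also overlapping. The ratio of Neto1 to Grik4, chosen after its values were seen, did not overlap: it ran from 1.71 to 2.01 in WT and from 1.17 to 1.46 in R6/1. Each WT library thus held more Neto1 per Grik4 than each R6/1 library, although both transcripts varied widely between libraries of the same genotype.

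Neto1 and Grik4 moved together from library to library. After subtracting each genotype's mean log2 value, Pearson's r between them was 0.92 over 18 libraries (Spearman's rho 0.92, r 0.88 without the 2 libraries farthest from the median of Grik4). Within WT alone r was 0.95 and within R6/1 alone 0.87, over 9 libraries each. Grik4 and Grik3 went in opposite directions among the WT libraries (r -0.83), less so among R6/1 libraries (r -0.33), with r -0.68 over all 18. These are the most extreme of 21 pairs, and they are descriptions: each library shares its depth scaling, dissection and cell mixture among all its genes. Grik2 and Grik5, at -0.04 over 18 libraries, did not follow each other.

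**Figure D3:**
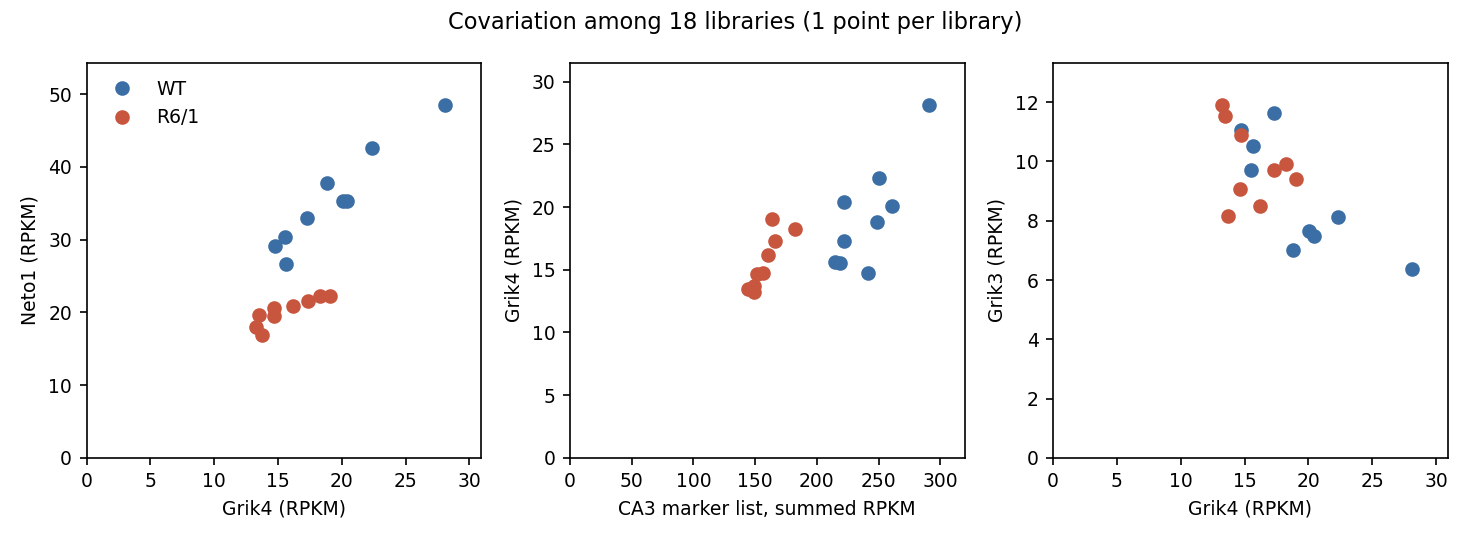
Scatter plots in RPKM with 1 point per library, WT and R6/1 in different colours: Neto1 against Grik4, Grik4 against the summed level of 6 CA3 neuron markers, and Grik3 against Grik4. The Neto1 and Grik4 points form a separate rising band for each genotype, with WT replicate 1 at the top at 28.1 RPKM of Grik4 and 48.5 RPKM of Neto1.

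Several marker lists varied with this pair from library to library, and CA3 pyramidal neuron markers rose and fell in the same direction. All 6 CA3 markers were called lower in R6/1 (Iyd, Bok, Cpne4, Prss23, Nectin3 and Dkk3; median log2 fold change -0.99), and their summed level ran from 214 to 290.5 RPKM in WT and from 144 to 182 RPKM in R6/1, with no marker at 0. Across the 18 libraries, with genotype means subtracted, this sum correlated with Grik4 at r 0.80 (rho 0.75, r 0.71 without the 2 farthest libraries) and with Neto1 at r 0.78 (rho 0.75, r 0.60 without them). For Grik2, Grik5 and Neto2 the values were 0.30, 0.35 and 0.36, and for Grik1 and Grik3 they were negative, at -0.45 and -0.55 (within WT -0.72 and -0.70, within R6/1 0.25 and -0.20). Other lists went the opposite way to Grik4 and Neto1: the striatal projection neuron sum, at most 12.4 RPKM, at r -0.86 and -0.76, and the endothelial sum at r -0.66 and -0.69. The covariation of the pair was thus not limited to CA3 markers. Grik4 stood at a median of 7.69% of the CA3 sum in WT and 9.70% in R6/1, and Neto1 at 14.8% and 13.0%, both with overlap. Dkk3 supplied the largest part of the CA3 sum, averaging 144.9 RPKM over the WT libraries against 111.9 RPKM for R6/1. Of the 6 markers it changed least (log2 fold change -0.37), and it overlapped between the genotypes. The percentages of the CA3 sum therefore depend most on Dkk3, and correlations with single CA3 markers were not taken. The part of CA3 cell number in the changes of Grik4 and Neto1 was not tested.

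Many markers of other neurons and of glia were lower in R6/1 too, where 23.5% of all tested genes were called lower and 24.8% higher. All 6 dentate granule markers were called lower (median log2 fold change -1.42; summed level 71.3 to 111 RPKM in WT and 42.3 to 53.6 RPKM in R6/1), as were all 6 CA1 markers (-0.44; 168 to 235 and 126 to 144 RPKM). Of the 7 inhibitory neuron markers 5 were lower and 2 were not called (median log2 fold change -0.29). Sst (-1.17) and Vip (-0.93) changed most, and the other called markers changed by -0.21 to -0.36. The sums were 355 to 433 RPKM in WT and 216 to 283 RPKM in R6/1. Sst alone averaged 195.5 RPKM in WT and 86.8 RPKM in R6/1, most of the fall in the sum. Of the striatal projection neuron markers 2 of 5 were lower, with sums of 5.52 to 12.4 RPKM in WT and 5.57 to 7.01 RPKM in R6/1 that overlapped. Among glia, 4 of 5 astrocyte markers were lower and 1 higher (median log2 fold change -0.48), 4 of 5 oligodendrocyte markers were lower (-0.28), as were 1 of 3 oligodendrocyte precursor markers (-0.10) and 3 of 5 microglia markers (-0.40). Their summed levels overlapped between the genotypes: astrocyte 267 to 412 RPKM in WT and 194 to 306 RPKM in R6/1, oligodendrocyte 850 to 1096 and 492 to 877 RPKM, precursor 19.7 to 24.6 and 17.5 to 22.8 RPKM, and microglia 66.4 to 91.1 and 50.6 to 88.7 RPKM. Of the 4 endothelial markers none was called (median -0.11). Grik1 correlated over 18 libraries with the inhibitory sum at r 0.41, but as much or more with the dentate (-0.58), endothelial (0.47), CA3 (-0.45) and oligodendrocyte precursor (0.43) sums. None of the marker genes of these lists was at 0 in all libraries, and their part in the members' changes was not tested.

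Choroid plexus tissue in the dissection, read from Ttr, Kl, Folr1, Kcnj13 and Clic6, also went along with some members. Within WT its summed level correlated with Grik4 at r 0.81, with Neto1 at r 0.77 and with Grik3 at r -0.78, over 9 libraries; within R6/1 the values were 0.16, 0.02 and -0.24. In the 5 WT and 3 R6/1 libraries with under 200 RPKM of these markers, 3 members were called lower: Grik2 (log2 fold change -0.31, limma adjusted p = 0.00709), Grik5 (-0.24, limma adjusted p = 0.0112) and Neto1 (-0.63, limma adjusted p = 0.00148). In that subset 1876 genes were called higher and 2142 lower, against 3586 and 3394 in all 18 libraries. Grik3 was at 0.05 there.

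For each member the 3 genes with the most similar pattern over the 18 libraries were taken by Pearson's r on log2 values with genotype means subtracted, among the 13105 genes whose mean reached 1 RPKM. Grik4 was most like Nrp1, Lsm11 and Nptx1, each at r 0.94, and Neto1 was most like Lsm11 (0.94), Nrp1 (0.92) and Grik4 (0.92). Nrp1, Lsm11 and Nptx1 were themselves lower in R6/1, with log2 fold changes of -0.43, -0.90 and -0.64. Grik3 was most like Tshz3 (0.91), Etl4 (0.90) and Cdh6 (0.89), and Grik5 most like Tmem198 (0.91), Scap (0.89) and Prrt1 (0.88). The likeness was weaker for Neto2, with Tmem56 (0.86), Nrsn1 (0.80) and Cpeb2 (0.78), for Grik1, with Il4ra (0.82), Myo19 (0.79) and Adcy6 (0.77), and for Grik2, with Nsd1 (0.81), Kdm2a (0.80) and Cers6 (0.77). Without the 2 libraries farthest from the median of Grik1, its r was 0.86 with Il4ra, 0.63 with Myo19 and 0.57 with Adcy6. Within R6/1 alone these were 0.80, 0.49 and 0.59. For Grik4 and Neto1 the lists shared Nrp1 and Lsm11. Likeness in pattern did not mean likeness in the genotype difference: Kdm2a was higher in R6/1 by 0.16 (limma adjusted p = 0.000923) where Grik2 was lower.

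Genes that work with kainate receptors were followed in the same fit. Of 12 other ionotropic glutamate receptor genes, 11 passed the filter on low values, and 6 were called lower, 1 higher and 4 neither. Beside this, 48.3% of all tested genes were called, 23.5% lower and 24.8% higher. The median log2 fold change of the list was -0.41. The AMPA receptor subunits Gria1 (184 ± 18.4 RPKM in WT, 112 ± 10.3 in R6/1, log2 fold change -0.72) and Gria3 (42.0 ± 3.01 and 27.4 ± 2.18 RPKM, -0.61) fell with no overlap, as did the NMDA receptor subunit Grin2a (19.2 ± 3.48 and 10.8 ± 2.14 RPKM, -0.80). Grin2c also fell, with a log2 fold change of -0.60 and an overlap. The 1 higher gene, named after its values were seen, was Grin2d (0.23), which was not called in the libraries low in choroid plexus markers. Neto1 thus had a log2 fold change near that of Grin2a, and the 5 subunits lay within the range of this list.

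**Figure D4:**
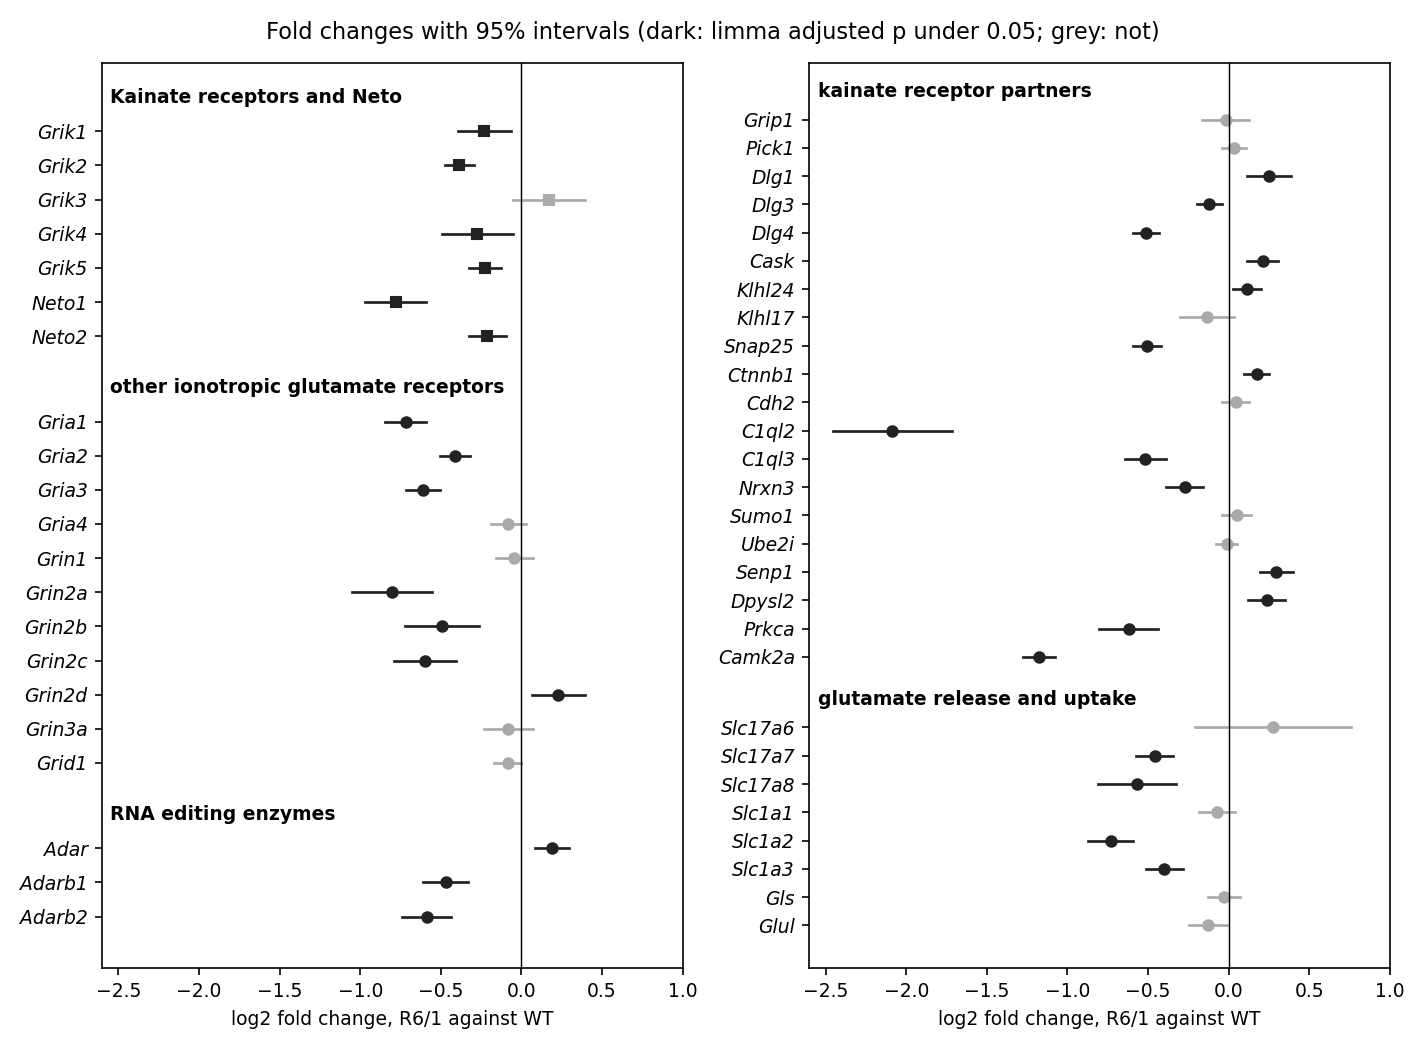
Log2 fold changes of R6/1 against WT with 95% intervals from limma, for the 7 genes and for 4 lists of related genes; dark symbols passed the adjusted threshold of 0.05 and grey ones did not. Neto1 lies at -0.78, beside Grin2a at -0.80, and the partner C1ql2 lies farthest left at -2.08.

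The 20 genes for scaffolds, ligands and regulators of kainate receptors were split, with 8 lower, 6 higher and 6 neither and a median log2 fold change of -0.01, where 48.3% of all tested genes were called, 23.5% lower and 24.8% higher. With each library scaled by its own total of reads the list had 7 lower and 9 higher. All tested genes moved the same way in that setting, to 2526 lower and 5113 higher from 3394 and 3586. The 6 higher genes, named after their values were seen, were Dlg1 (0.25), Cask (0.21), Klhl24 (0.11), Ctnnb1 (0.17), Senp1 (0.30) and Dpysl2 (0.24). Of these, Senp1 had no overlap between the genotypes. Of the 8 lower genes 6 had no overlap, where 6.38% of all tested genes were lower and 5.5% higher with no overlap. Dlg4 (309 to 216 RPKM, -0.51) and Snap25 (1055 to 742.5 RPKM, -0.51) were among these. Nrxn3 (-0.27) and Dlg3 (-0.12) fell with an overlap. The complement-like proteins C1ql2 and C1ql3 are released by mossy fibres and help place kainate receptors at the CA3 synapse. C1ql2 averaged 25.9 ± 8.19 RPKM in WT against 5.56 ± 1.37 RPKM in R6/1 (log2 fold change -2.08, limma adjusted p = 1.10e-08), and C1ql3 at 27.8 ± 3.41 and 19.2 ± 1.11 RPKM (-0.52, limma adjusted p = 8.41e-07). Both fell with no overlap between the genotypes; C1ql2 is also a member of the dentate granule list. The kinases Camk2a and Prkca, which phosphorylate GluK5 and GluK2 respectively, fell from 1057 ± 71.8 to 467 ± 32.1 RPKM (-1.18) and from 51.7 ± 6.33 to 33.6 ± 5.54 RPKM (-0.62), without overlap.

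All 3 editing enzyme genes were called, 2 lower and 1 higher, where 48.3% of all tested genes were called. Adarb1, which encodes the enzyme that edits the Q/R codon shown above, fell from 35.7 ± 5.70 to 25.5 ± 1.45 RPKM, a log2 change of -0.47 (limma adjusted p = 9.40e-06) with no overlap. Adarb2, whose product is thought to restrain editing, fell from 4.52 ± 0.572 to 2.84 ± 0.344 RPKM (-0.59, limma adjusted p = 1.65e-06), also with no overlap. Adar rose from 31.6 ± 2.69 to 36.0 ± 2.55 RPKM (0.19, limma adjusted p = 0.00402), and this call was lost in the libraries low in choroid plexus markers. The edited subunits' own transcripts, Grik1 and Grik2, were lower as well.

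On the presynaptic and clearing side, 4 of 8 genes for glutamate release and uptake were called lower and 0 higher, with a median log2 fold change of -0.26. Of all tested genes 48.3% were called, 23.5% lower and 24.8% higher. The glial glutamate transporter gene Slc1a2 fell from 509 ± 46.8 to 307 ± 33.8 RPKM (-0.73) with no overlap. Slc17a8, the vesicular transporter gene of a minor set of neurons, averaged 1.58 ± 0.393 RPKM in WT against 0.898 ± 0.227 RPKM in R6/1 (-0.57), and its libraries overlapped. At an unadjusted limma p under 0.05 the count of higher genes in this list was 0 as well.

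Lamina-associated domains held 3 of the 7 genes. On build NCBIM37, Grik1 (chr16:87896441-88289947), Grik2 (chr10:48819266-49508572) and Neto1 (chr18:86564344-86671289) lay inside a lamin B1 domain with their start and their whole length, in the WT list and in the R6/1 list. Of 12951 tested genes placed on this build, 13.1% had their start in a WT domain, 8.03% in an R6/1 domain and 7.68% in both. Grik3 (chr4:125167944-125391417), Grik4 (chr9:42326218-42752576), Grik5 (chr7:25794872-25857388) and Neto2 (chr8:88161136-88224653) had no base in a domain of either genotype. The 2 members whose RPKM did not overlap between genotypes, Grik2 and Neto1, are both in the first set, as is Grik1, whose RPKM did overlap. Grik4, Grik5 and Neto2, outside the domains, were called lower too. A link between domain position and the expression difference was not tested.

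The domain around Grik2 differed between the lists. It spanned 12.69 Mb in WT, chr10:44881001-57572000, and 6.14 Mb in R6/1, chr10:45769001-51911000. Whether other R6/1 domains cover the rest of the WT span was not examined. The Grik2 start lay 4627.6 kb from the nearest border in WT and 2402.4 kb in R6/1, deep inside the domain in both. The domain around Grik1 had the same bounds in both lists, chr16:65305001-89762000, and that around Neto1 spanned 5.59 Mb in WT and 5.64 Mb in R6/1. The nearest border to the Grik5 start was 6580.4 kb away in WT and 956.4 kb in R6/1, on the outside. With 1 list per genotype these differences have no replicate check.

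**Figure D5:**
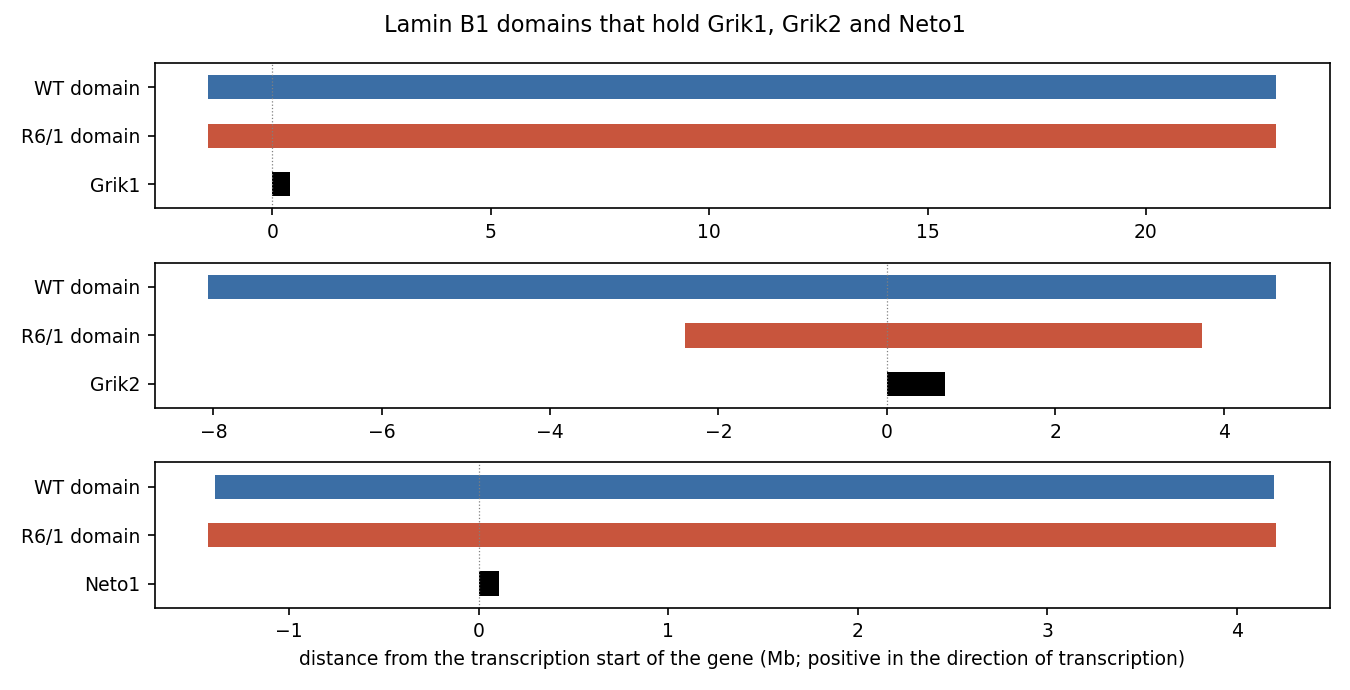
Lamin B1 domains that hold Grik1, Grik2 and Neto1, as bars over the distance from each gene's transcription start in Mb, with WT, R6/1 and the gene itself on separate rows. The domain that holds Grik2 is shorter in R6/1 (6.14 Mb) than in WT (12.69 Mb), and the other 2 domains have nearly the same ends in both lists. Neighbouring domains are not drawn.

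Promoter sequence was read for 5 members from RefSeq on build GRCm38.p6, as the 250 bases before the annotated start on the sense strand. Grik1 had no entry there and Neto1 was left out, so the motif counts do not cover these genes. The 2 subunit genes whose fall held in every alternative are shown, with GC boxes (GGGCGG, or CCGCCC on the other strand, the motif of Sp1-type factors) in capitals. The Grik2 window is chr10:49788755-49789004 and that of Grik5 is chr7:25072370-25072619, both on the minus strand:
Grik2: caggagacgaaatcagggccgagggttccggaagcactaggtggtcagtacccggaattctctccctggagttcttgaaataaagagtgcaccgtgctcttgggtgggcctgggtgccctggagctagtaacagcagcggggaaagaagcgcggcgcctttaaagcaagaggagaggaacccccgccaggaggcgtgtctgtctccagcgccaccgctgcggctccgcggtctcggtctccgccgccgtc
Grik5: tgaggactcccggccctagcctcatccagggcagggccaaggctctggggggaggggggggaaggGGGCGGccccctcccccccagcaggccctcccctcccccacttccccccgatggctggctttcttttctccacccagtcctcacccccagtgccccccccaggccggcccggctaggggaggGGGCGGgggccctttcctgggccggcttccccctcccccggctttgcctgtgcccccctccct
The Grik5 window is rich in G and C, at 75.2%, but holds 8 CpG pairs, whereas the Grik2 window has 62.8% G and C and 20 CpG pairs; the median of 32851 windows in the same table is 52.4% and 6 pairs. GC boxes were found 2 times in the Grik5 window and not in that of Grik2, and 32.7% of all windows hold at least 1. The windows of Grik3 and Grik4 hold 6 and 1, and of the 2 Neto2 windows the one farther upstream holds 2. The cAMP response element TGACGTCA (in 1.55% of all windows) and the E-box CACGTG (6.02%), searched on both strands, were in none of these 6 windows.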

How the data were processed

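RNA-seq of 18 hippocampal libraries and 2 lists of lamin B1 domains were used; the labels' genotype gave the groups, and of the value columns per sample 0 went unused. The RNA kit selected messenger RNA and kept strand, per the labels' protocols. The authors deposited RPKM for 24508 genes, and a table of their comparison with a mean normalized count (a signal), a log2 fold change with its error, a score of the test and p-values, raw and adjusted. As tools the authors used, TopHat, DESeq2 and build mm9 are named for the RNA, and Bowtie and mm9 for the ChIP, per the submitters' processing notes; versions, the counter, its use of strand and the annotation are not given in the sources used here. The deposited domain lists give 1 score per domain, which was not used for any result; the caller EDD is named in the file names, and how replicates were combined is not given.

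Deposited RPKM were whole multiples of the value of 1 read per library for 99.84% to 99.89% of values within 0.05 of a read, which gave the reads per gene; the deposited scaling is by size factors. The test was limma 3.58.1 in R 4.3.3 (lmFit, eBayes with trend) on log2(RPKM + 0.5), as a two-sided test of the 14446 genes whose mean over all libraries reached 0.5 RPKM; fold changes on this scale understate those of low genes. Simulated data held 200 changed genes and the same spread setting for every gene, with 14470 genes tested. The share of changed genes recovered there was 26% at a log2 change of 0.3, 90% at 0.6, 95.9% at 1 and 100% at 2. Of the calls there, 4.94% were false. In the data 48.3% of the tested genes were called, so these shares do not give the power for the members. Genes named are the members, list genes called with a log2 fold change of at least 0.5 in size (at most 4 per list), all Adar genes and the 3 genes most like each member. In addition, Grin2d, the 6 higher partner genes and the partners Dlg3, Dlg4, Snap25 and Nrxn3 were named after their values were seen. The CA3 and choroid plexus markers are named in full as lists. Members and lists were chosen with earlier results of these data known, and 1 gene of the list of other ionotropic receptors is not reported here. Alternatives were pseudocounts of 0.1 and 1, other filters (none, a mean of 2 RPKM), median centring, quantile normalization, own totals, the replicate block, no trend, library weights, limma voom on recovered reads, the authors' table and leaving out each library.

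Positions, exons and coding sequences are from GENCODE on NCBIM37 and promoters from RefSeq on GRCm38.p6, with no conversion between builds. Annotated genes that overlap Grik2, Grik3 and Grik4 share 0 exon bases with them. ATAC-seq and ChIP reads were not analysed here.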

Additional observations from a re-analysis of the deposited data

Results flagged for a closer look

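In R6/1 replicate 2 the share of Grik5 in the summed Grik1 to Grik5 level was 64.1%, and the nearest other R6/1 library was at 60.8%. The gap was 0.533 of the group's range, above Dixon's 95% critical value for 9 libraries, and that distance from the others is what marks it. It was the 1 such case in 38 groups of 9 values examined, where chance gives about 1.9.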

How the results depend on the processing

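Across 31 alternatives no member changed direction. Grik2, Grik5 and Neto1 were called in all 31, Neto2 in 30, Grik1 in 29, Grik4 in 17 and Grik3 in 0; where calls were lost, the cause was not tested. Members called lower numbered 5 to 6 when each library was left out in turn (members called higher stayed at 0), 4 with own totals of reads, 5 without a filter and 5 with library weights. The libraries low in choroid plexus markers, chosen after the data were seen, gave 3 members lower, 0 other ionotropic receptor genes higher (1 in all libraries) and 0 editing enzyme genes higher (1 in all libraries); that subset holds 8 of 18 libraries. Own totals of reads moved the split of all calls to 5113 higher and 2526 lower (66.9% higher, 51.4% as deposited) and the median of all genes by 0.07 on the log2 scale. The labels give both genotypes the numbers 1 to 9 without saying that a number is shared. Same-numbered libraries correlated at -0.05 to 0.24, 3 of 9 over 0.1 and 2 of 9 best with their own number. The main fit did not pair the samples, but these values do not exclude that a number is shared. A fit with the number as a block gave a smaller SE for Grik3, Grik4 and Neto1 and a larger one for the other members. With the replicate block 6 members were called lower (Grik4 at limma adjusted p = 0.00996), and 3666 genes were called higher and 3467 lower overall. List counts were not recomputed with single libraries left out. At 130 to 234 reads per library, counting error limits Grik1 most.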
